A study of Mus musculus with 6 samples.

Results

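Of the genes measured on this array, 6 are followed here: the transcription factors *Pax2*, *Pax8*, *Lhx1*, *Emx2* and *Wt1*, which act in the embryonic ducts and mesoderm from which the uterus and oviduct arise, and *Cdh16*, which encodes the kidney-specific (Ksp) cadherin. All of their probes, 8 in number, were found by the RefSeq accession printed with each probe, and all 6 genes were among the 14847 genes tested of 20145 matched to a probe. *Pax2* had 3 probes and each of the other 5 genes had 1, so for those genes no probe checks another.

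Uteri were collected at gestation day (GD) 3.5 after natural mating, with the embryos removed, from females mated at 8 to 10 weeks of age. In *Sox17* ed/ed mice both *Sox17* alleles are floxed and an iCre recombinase expressed from 1 *Ltf* allele (*Ltf*iCre/+) deletes them in the uterine epithelium after puberty. The controls, called *Sox17* f/f, carry the same floxed alleles without iCre (their genotype label reads WT), so an effect of the *Ltf*iCre allele itself cannot be told apart from that of the deletion. SOX17 of the endothelium is not removed by this driver, the strain of the females is not given in the sources used here, and the RNA came from whole uterus, with 3 arrays per genotype and 1 colour.

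PAX2 and PAX8 are paired-domain factors of the nephric and Müllerian duct epithelium, and LHX1 is a LIM homeodomain factor needed for both ducts to form. EMX2 is a homeodomain factor without which the urogenital tract does not develop, and WT1 is a zinc finger factor of the mesenchyme and mesothelium around the ducts. In the adult tract, PAX8 marks the epithelium, and EMX2 and WT1 are known in the endometrium. Cadherin-16 is an adhesion protein of the basolateral membrane of kidney tubules and thyroid cells, and in the thyroid PAX8 is a known activator of its gene.

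All 6 arrays were on 1 slide read in 1 scan, with the genotypes in separate lines of the slide, so position and genotype cannot be told apart. Between 56.8% and 65.7% of the spots on an array were well above background, with 60.7% to 65.7% in *Sox17* f/f and 56.8% to 59.4% in *Sox17* ed/ed, no spot was saturated, and arrays correlated with each other at 0.963 to 0.995. The *Sox17* probe used for the gene fell from 12.17 ± 0.09 (SD, n = 3) to 9.72 ± 0.11 (SD, n = 3) on the log2 scale, a difference of -2.45 (SE 0.09, adjusted p = 2.66e-05 in limma), as the genotype labels say. Values are normalized log2 signals, differences are *Sox17* ed/ed minus *Sox17* f/f, and adjusted p-values are limma's, adjusted by Benjamini-Hochberg over every gene in the fit. A gene was called changed at an unadjusted p under 0.01 and a fold of at least 1.4, the thresholds of the study's methods. Nothing says whether each array was a separate animal, so p-values measure the spread between these samples.

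The 6 genes did not move together. *Cdh16* and *Emx2* were higher in *Sox17* ed/ed uteri, *Pax8* was lower, and *Pax2* and *Wt1* were not called. *Lhx1* passed the thresholds as lower, but its bound of 1.22-fold lies under the fold threshold. Of the genes tested, 12.5% were called in either direction, 6.04% higher and 6.47% lower. *Lhx1* was below detection in *Sox17* ed/ed and is left out of the next counts, which are descriptions. Without the fold threshold, 4 of the other 5 genes had an adjusted p under 0.05 (18.9% of all genes did), and for the same 4 the arrays of the 2 genotypes did not overlap (40.5% of all genes with a value on every array), *Pax2* being the exception. The median difference over the 6 was -0.07, beside -0.00 over all genes. In RNA from whole uterus, fewer cells that express a gene and less RNA per cell cannot be told apart.

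**Figure D1:**
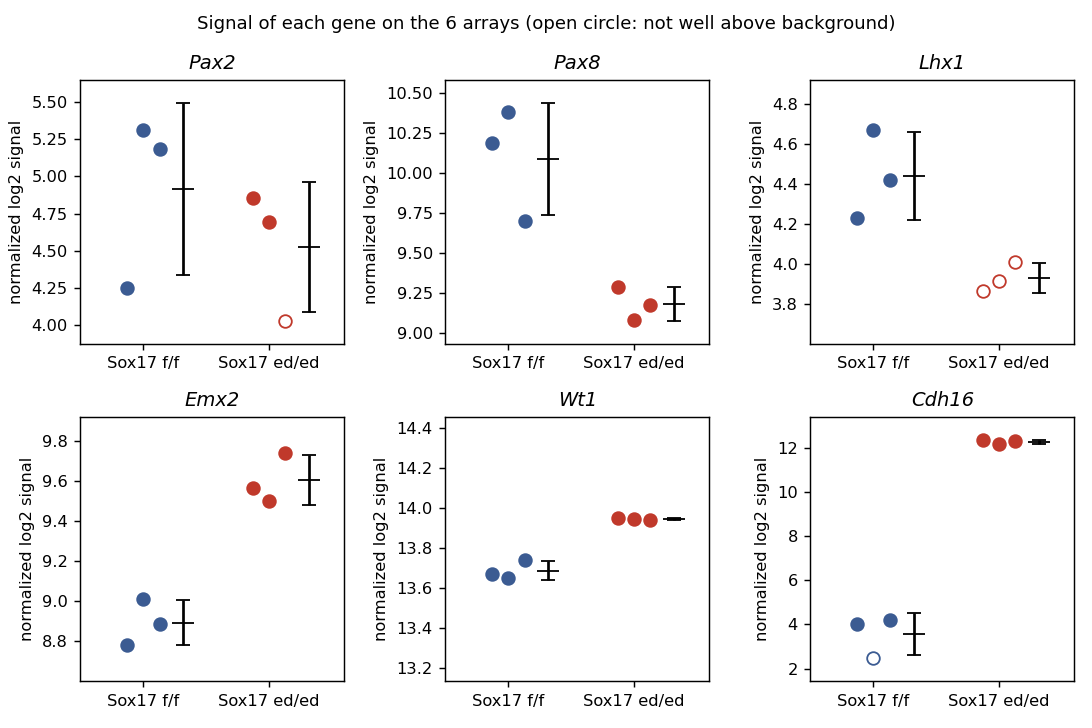
Normalized log2 signal (y axis, its own range in each panel) of the 6 genes on the 3 Sox17 f/f arrays (blue) and the 3 Sox17 ed/ed arrays (red). Each circle is an array, an open circle is a spot not well above background, and the bar is the mean with its SD. Cdh16 lies between 2.48 and 4.22 in Sox17 f/f and between 12.15 and 12.33 in Sox17 ed/ed, and Pax2 is the gene whose genotypes overlap.

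*Pax8* was lower in *Sox17* ed/ed uteri. Its signal was 10.19, 10.38 and 9.70 on the *Sox17* f/f arrays and 9.29, 9.08 and 9.18 on the *Sox17* ed/ed arrays. The groups did not overlap, and *Sox17* f/f replicate 3 lay nearest to the *Sox17* ed/ed arrays. The means were 10.09 ± 0.35 and 9.18 ± 0.10 (SD, n = 3 each), a difference of -0.91 (SE 0.18, 95% confidence interval -1.34 to -0.47, adjusted p = 0.0182 in limma), or 1.87-fold lower (1.39 to 2.53). Leaving out 1 array at a time, the difference ranged from -1.10 to -0.76. In an ordinary linear model without limma's shared variance, *Pax8* was no longer called.

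*Emx2* was higher in *Sox17* ed/ed uteri. Its signal was 8.78, 9.01 and 8.88 on the *Sox17* f/f arrays and 9.57, 9.50 and 9.74 on the *Sox17* ed/ed arrays, with no overlap. The means were 8.89 ± 0.11 and 9.60 ± 0.13 (SD, n = 3 each), a difference of 0.71 (SE 0.10, 95% confidence interval 0.48 to 0.94, adjusted p = 0.00442), or 1.64-fold higher. *Emx2os*, a noncoding transcript read from the opposite strand at the *Emx2* locus, was also higher. Its brighter probe gave 5.97, 5.79 and 5.51 in *Sox17* f/f and 6.68, 6.79 and 7.21 in *Sox17* ed/ed, again without overlap. The *Emx2os* difference was 1.14 (SE 0.18, adjusted p = 0.00746), and its second probe gave 0.71 (SE 0.14). Probe sequences were not used here, so whether probes for *Emx2* and *Emx2os* lie on shared sequence was not tested.

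The starts of *Pax8* and *Emx2*, the called factor genes measured on every array, are shown because a SOX factor is what was removed. The table of RefSeq promoters used here (GRCm38.p6) has entries for 4 of the 6 genes, among them *Pax8*, *Emx2* and *Lhx1*, and *Cdh16* and *Wt1* are the others. The lines below give the 250 bases upstream of the start of *Pax8* (chr2:24475600-24475849, minus strand) and of *Emx2* (chr19:59458440-59458689, plus strand), in the direction of transcription, with a CCAAT box, the core read by nuclear factor Y, in capitals.
Pax8: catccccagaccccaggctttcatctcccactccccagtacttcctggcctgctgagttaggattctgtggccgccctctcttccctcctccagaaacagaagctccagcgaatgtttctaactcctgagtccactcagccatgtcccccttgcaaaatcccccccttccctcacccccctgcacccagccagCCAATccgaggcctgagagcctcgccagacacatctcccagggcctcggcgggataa
Emx2: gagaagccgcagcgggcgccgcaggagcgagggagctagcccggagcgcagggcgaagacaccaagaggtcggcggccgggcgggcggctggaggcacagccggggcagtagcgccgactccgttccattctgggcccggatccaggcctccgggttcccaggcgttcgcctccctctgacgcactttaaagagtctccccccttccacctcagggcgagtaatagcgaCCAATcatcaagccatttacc
In *Pax8* the box begins 57 bases before the start, and in *Emx2* 21 bases before it. Searched on both strands, CCAAT was found in 3 of the 6 promoters listed for *Pax8*, *Emx2*, *Lhx1* and *Pax2*, against 33.8% of 32851 promoters. The core of the SOX motif, ACAAT or ATTGT on the other strand, was found in 0 of the 6, against 27.7% of all. The homeobox core TAATTA was also in 0 of the 6, against 4.84% of all. The 6 promoters were 52.8% to 72.8% G or C, against a median of 52.4% over all promoters, and several of them are starts of *Pax2*. The shares were not adjusted for either. These counts describe letters in a short window and say nothing of binding there or farther away.

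*Lhx1* was near the detection limit. Its signal was 4.23, 4.67 and 4.42 in *Sox17* f/f, well above background on all 3 arrays, and 3.86, 3.92 and 4.01 in *Sox17* ed/ed, where no array was well above background. The *Sox17* ed/ed level is therefore only a bound, which put *Lhx1* at least 1.22-fold lower there in this fit. With normexp the log2 difference was -0.12, so 1.22-fold is not a minimum under every processing. The bound sets the mean of the *Sox17* f/f arrays against the higher of each *Sox17* ed/ed array's own value and its lowest signal well above background. That lowest signal is not a fixed detection limit. On *Sox17* ed/ed replicate 3 it was 3.56, and *Lhx1* at 4.01 was still not well above background. The measured means were 4.44 ± 0.22 and 3.93 ± 0.07 (SD, n = 3 each), with an adjusted p of 0.0334 in limma. *Lhx1* passed the filter on low signal through the *Sox17* f/f arrays alone, and its call was lost in 8 of 16 alternatives, 5 of them leaving out 1 array each.

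*Wt1* differed little in size but with a small spread. Its signal was 13.67, 13.65 and 13.74 in *Sox17* f/f and 13.95, 13.94 and 13.94 in *Sox17* ed/ed. The groups did not overlap, and the *Sox17* ed/ed arrays lay close together. The means were 13.68 ± 0.05 and 13.94 ± 0.01 (SD, n = 3 each), a difference of 0.26 (SE 0.06, 95% confidence interval 0.11 to 0.40, adjusted p = 0.0314), or 1.19-fold, under the fold threshold. *Wt1os*, the antisense transcript at this locus, had a difference of -0.06 (SE 0.17, adjusted p = 0.851), and its other probe was below detection (not well above background) on each of the 6 arrays.

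*Pax2* was near the detection limit in both genotypes, and its probes gave no call. The probe used for the gene read 4.25, 5.31 and 5.18 in *Sox17* f/f and 4.85, 4.70 and 4.03 in *Sox17* ed/ed, and was well above background on 5 of the 6 arrays. These values overlap, and the difference was -0.39 (SE 0.34, 95% confidence interval -1.21 to 0.44, adjusted p = 0.472). The second probe read 6.16, 4.34 and 4.60 in *Sox17* f/f and 3.74, 4.75 and 3.97 in *Sox17* ed/ed, a difference of -0.88 (SE 0.52) that was not called. The third probe was well above background on 2 arrays, too few for the test. An interval this wide leaves both a fall by more than 1.4-fold and no change possible for *Pax2*.

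**Figure D2:**
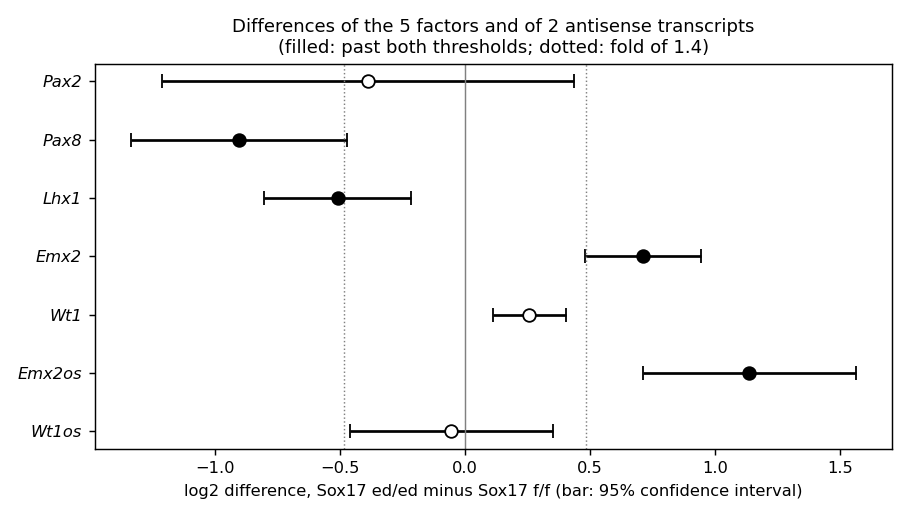
Log2 difference, Sox17 ed/ed minus Sox17 f/f (x axis) of the 5 factors and 2 antisense transcripts, with its 95% confidence interval from limma. Filled circles passed both thresholds and dotted lines mark a fold of 1.4. Pax8 and Lhx1 lie to the left, Emx2 and Emx2os to the right, and the interval of Pax2 crosses 0. For Lhx1 the Sox17 ed/ed level is only a bound.

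*Cdh16* went from a level near background to a bright signal. Its signal was 4.04, 2.48 and 4.22 on the *Sox17* f/f arrays and 12.33, 12.15 and 12.29 on the *Sox17* ed/ed arrays, so the groups lay far apart. Before normalization, the processed signal was 14.8, 5.01 and 26.4 in *Sox17* f/f and 5015, 4192 and 4949 in *Sox17* ed/ed. In *Sox17* f/f it was well above background on replicates 1 and 3 only. The means were 3.58 ± 0.96 and 12.26 ± 0.09 (SD, n = 3 each), a difference of 8.68 (SE 0.45, adjusted p = 9.49e-05) on the log2 scale. The size, 410-fold in this fit, depends on a control level near background and is not a measured ratio of 2 detected levels. With normexp background correction the difference was 6.03, and without *Sox17* f/f replicate 2 it was 8.09, and *Cdh16* was called in both.

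An exact two-sided permutation test over the arrays, which uses no other gene, gave p = 0.1 for *Pax8*, *Lhx1*, *Emx2*, *Wt1* and *Cdh16*, the smallest that 3 arrays against 3 allow, and p = 0.4 for *Pax2*. For *Lhx1* the *Sox17* ed/ed values in that test were below detection.

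The other cadherins differed far less than *Cdh16*, by -0.73 to 0.91. Of 22 other cadherin genes, 13 were tested and 3 were called (23.1%, against 12.5% of all genes). *Cdh1*, E-cadherin of epithelial junctions, was higher by 0.59 (SE 0.10, adjusted p = 0.0127), and *Cdh6*, a classical cadherin of embryonic kidney, by 0.54 (SE 0.10, adjusted p = 0.0147). *Cdh26*, a cadherin of mucosal epithelium, was lower, at -0.73 (SE 0.14, adjusted p = 0.0177). With normexp 1 of the 13 was called, since *Cdh6* (0.43) and *Cdh26* (-0.44) fell under the fold threshold. *Cdh17*, the closest relative of *Cdh16*, was below detection throughout, as were *Cdh7*, *Cdh19* and *Cdh23*.

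**Figure D3:**
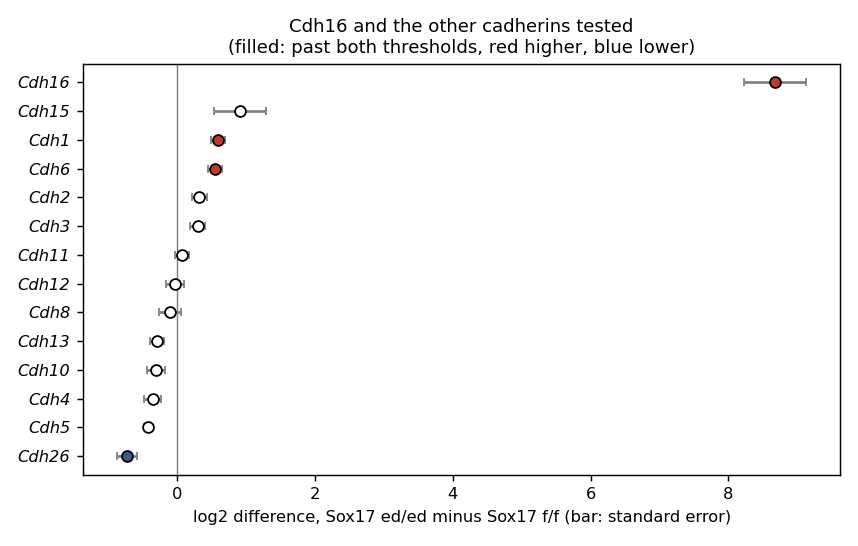
Log2 difference, Sox17 ed/ed minus Sox17 f/f (x axis) of Cdh16 and the 13 other cadherin genes tested, with the standard error from limma. Cdh16, at 8.68, lies far to the right of the others, which run from -0.73 to 0.91, and filled circles passed both thresholds.

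The genes whose pattern over the 6 arrays was most like that of *Cdh16*, by the root mean square difference of log2 values after centring each gene, were *Adh6a*, an alcohol dehydrogenase, at 0.53, *Cuzd1*, which encodes a CUB and zona pellucida domain protein, at 0.65, and *Krt15*, a keratin of basal epithelial cells, at 1.01. *Adh6a* differed by 7.97 (SE 0.29) and was measured on all arrays, whereas *Cuzd1* and *Krt15* were below detection on each *Sox17* f/f array. With normexp the differences were smaller, 6.94 for *Adh6a*, 5.15 for *Cuzd1* and 3.76 for *Krt15*, and their order against *Cdh16* changed. For *Emx2* the nearest were *Prxl2a*, *Wfs1* and *Efna4*, at 0.056 to 0.063, with differences of 0.62, 0.67 and 0.79. For *Pax8* they were *Kif5b*, *Fam78b* and *Akap7*, at 0.065 to 0.090, with differences of -0.83, -0.99 and -0.90. The nearest to *Wt1* were *Svil*, *Nudt9* and *Itgb2*, those to *Lhx1* were *Taf7*, *Dynll1* and *Map6*, and those to *Pax2* were *Cmtm5*, *Bend6* and *Vwa5b2*. With 6 arrays these likenesses mostly restate the size of the difference, and they are descriptions without a test.

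Among other genes of Müllerian duct and female tract development, *Wnt4*, *Wls*, *Rarb* and *Dach2* were called higher. Of the 24 such genes reported, 21 were tested, 4 were called and 17 were not, so 19.0% were called against 12.5% of all genes, and the median difference was 0.20. *Wnt4*, the ligand needed for the duct to invaginate, was higher by 1.61 (SE 0.13, adjusted p = 0.000600), with means of 6.65 ± 0.06 and 8.26 ± 0.26 (SD, n = 3 each). *Wls*, which carries WNT proteins to the cell surface, was higher by 0.54 (SE 0.07, adjusted p = 0.00347). *Rarb*, a retinoic acid receptor, was higher by 0.80 (SE 0.10, adjusted p = 0.00285), and *Dach2*, a transcriptional cofactor of the ducts, by 1.01 (SE 0.25, adjusted p = 0.0367). The call of *Dach2* was lost in 7 of 17 alternatives, among them no filter on low signal, the ordinary linear model and leaving out *Sox17* f/f replicate 1 or 3 or *Sox17* ed/ed replicate 1 or 3. *Pax8*, named above as a known activator of *Cdh16* in thyroid, was lower in the uteri in which *Cdh16* was higher, and a link between the 2 genes here was not tested.

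*Wnt7a*, the epithelial WNT of the female tract, differed by 0.88 (SE 0.24) but had an adjusted p of 0.0533, and *Gata3* differed by 0.69 (SE 0.20) with an adjusted p of 0.0579. *Hoxa10*, known as a repressor of *Emx2* in human endometrium, differed by 0.34 (SE 0.06, adjusted p = 0.0139), under the fold threshold. *Wnt9b* and *Amh* were below detection on all arrays.

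**Figure D4:**
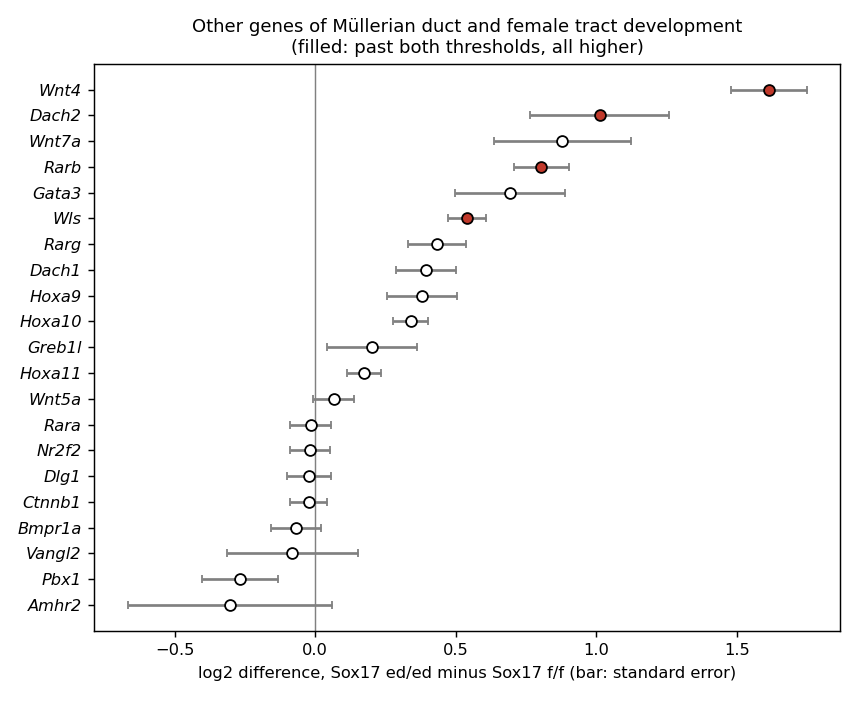
Log2 difference, Sox17 ed/ed minus Sox17 f/f (x axis) of 21 genes of Müllerian duct and female tract development other than the 5 factors, with the standard error from limma. Wnt4, Dach2, Rarb and Wls (red) were called higher, and open circles were not called.

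Of 25 genes of the early kidney and nephric duct, 22 were tested, with 4 called higher and 4 lower (36.4% called, against 12.5% of all genes). *Wnt11*, a WNT ligand of the ureteric bud tip, had the largest difference, from 9.03 ± 0.28 to 4.90 ± 0.09 (SD, n = 3 each), or -4.13 (SE 0.15). *Grem1*, a secreted BMP antagonist, differed by -1.71 (SE 0.25), with 1 *Sox17* ed/ed array well above background. *Etv5*, a factor downstream of RET and FGF signalling, was lower, at -0.87 (SE 0.11), and *Six4*, a homeodomain factor, was higher by 0.78 (SE 0.14). In the ordinary linear model, without *Sox17* f/f replicate 1 and without *Sox17* f/f replicate 2, 5 of these genes were called in place of 8. With normexp the *Grem1* difference was -0.70 and the *Wnt11* difference -2.71.

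The relatives of the 5 factors were mostly not detected. Of 19 paralogs, 12 were below detection on all arrays, among them *Pax6* and *Lhx5*. Neither of the 2 tested, *Lhx6* and *Lmx1b*, was called, beside 12.5% of all genes. Their probes disagreed, since 1 of them was called lower with the probes of a gene averaged and 2 with the probe of smallest p, so no direction is given. Of 13 tested genes for protein partners, *Basp1*, a corepressor of WT1, was the single one called, at -0.67 (SE 0.07, adjusted p = 0.00135). That is 7.69% of them, against 12.5% of all genes.

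Genes reported elsewhere as targets of the factors moved both ways, with 3 of 18 tested called higher and 3 lower (33.3% called, against 12.5% of all genes). *Areg*, an epidermal growth factor family ligand induced by WT1 in kidney and by progesterone in uterus, was detected in all 3 *Sox17* f/f samples and in 0 of the 3 *Sox17* ed/ed samples. It was at least 13-fold lower in *Sox17* ed/ed in this fit. That bound depends on the processing, since the log2 difference was -2.24 with normexp. *Areg* passed the filter on low signal through the *Sox17* f/f arrays alone, so the share called among the targets is only a description. *Snai1*, a repressor of E-cadherin that WT1 regulates in epicardium, was lower, at -1.06 (SE 0.11), beside the higher *Cdh1* given above. *Wnt4* is in this list too.

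Tissue markers were examined because *Cdh16*, *Pax8*, *Pax2* and *Wt1* are also expressed in kidney and other organs near the uterus. Of the 24 kidney tubule and podocyte genes reported, 14 were tested, 1 was called higher and 4 lower (35.7% called, against 12.5% of all genes). The summed signal was 8321 to 11348 in *Sox17* f/f and 3626 to 4836 in *Sox17* ed/ed. *Slc12a1*, *Kcnj1*, *Cldn16*, *Scnn1g* and *Slc22a8*, which encode tubule transporters, channels and a claudin, were below detection on all arrays. *Calb1*, a calcium-binding protein of distal tubule and of uterine epithelium, and *Slc12a3*, the sodium chloride cotransporter, were lower, and neither was detected in *Sox17* ed/ed. Both passed the filter on low signal through the *Sox17* f/f arrays alone, so the share called in this list is only a description. In this fit they were at least 7.49-fold and 2.63-fold lower. These bounds depend on the processing, since with normexp the log2 differences were -1.48 and -0.71. The endocytic receptors *Lrp2* and *Cubn* were lower, at -1.68 (SE 0.23) and -1.22 (SE 0.08), the latter -0.60 with normexp. The study counts *Lrp2* among known genes of the uterine epithelium, so the summed signal is no measure of kidney alone. The other 9 tested genes were not called, and the median difference was -0.12. Without *Lrp2*, an alternative chosen after seeing the data, the summed signal was 1457 to 1703 in *Sox17* f/f and 1688 to 1804 in *Sox17* ed/ed, so the fall of the sum came from that gene. The part of other tissue in the *Cdh16* difference was not tested.

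In the thyroid list 6 of 7 genes were matched and 2 tested. *Nkx2-1* and *Foxe1*, defining factors of that organ, were below detection on all arrays, and *Tshr* differed by -3.97 (SE 0.67), with 1 *Sox17* ed/ed array well above background (-1.67 with normexp). Of 10 ovary genes 3 were tested and 0 were called, against 12.5% of all genes, and so few genes describe little. In the oviduct and ciliated cell list, 9 genes were tested and 33.3% were called, against 12.5% of all genes. *Ovgp1*, oviductal glycoprotein, and *Dnah5*, a ciliary dynein, differed by -2.92 (SE 0.22) and -2.82 (SE 0.53, with 1 *Sox17* ed/ed array well above background). *Foxj1*, the factor for motile cilia, differed by 2.44 (SE 0.35) with 1 *Sox17* f/f array well above background. With normexp *Dnah5* differed by -1.06 and *Foxj1* by 0.70, and the call of *Dnah5* was lost in the ordinary linear model. The summed oviduct signal was 8816 to 10014 in *Sox17* f/f and 8719 to 9346 in *Sox17* ed/ed.

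Of 7 tested genes of mesothelium, whose cells express *Wt1*, 42.9% were called, against 12.5% of all genes. *Krt19* and *Upk3b* were higher by 2.10 (SE 0.13) and 1.56 (SE 0.23, *Upk3b* 0.80 with normexp). *Lrrn4*, not detected in *Sox17* ed/ed, was at least 1.86-fold lower in this fit, but differed by -0.30 with normexp and was not called there. It passed the filter on low signal through the *Sox17* f/f arrays alone, so the share called in the mesothelium list is only a description. The other 4 tested genes were not called. The summed signal was 6895 to 7907 in *Sox17* f/f and 18656 to 23614 in *Sox17* ed/ed. The keratin *Krt19*, with log2 means of 12.02 and 14.12, is in that sum and is shared with uterine epithelium, so the sum is no measure of mesothelium alone. *Msln*, a defining mesothelial gene, differed by -0.44 (SE 0.18, adjusted p = 0.139).

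Uterine markers were present on every array. In the uterine epithelium list 50% of the tested genes were called, against 12.5% of all genes. Of the 10 uterine epithelium genes reported 4 were called higher, led by the keratins *Krt19*, given above, *Krt7* at 1.46 (SE 0.21) and *Krt8* at 0.69 (SE 0.17), whose call was lost in 7 of 17 alternatives, 5 of them leaving out 1 array each, and *Cldn3*, a tight junction claudin, was lower, at -1.16 (SE 0.08). The summed epithelial signal was 48038 to 49788 in *Sox17* f/f and 51076 to 63279 in *Sox17* ed/ed, and *Epcam* differed by 0.10 (SE 0.10). *Krt19*, with log2 means of 12.02 and 14.12, is in this sum too, so the sum is no measure of the amount of epithelium. Of 11 stromal genes 0 were called at these thresholds by limma, against 12.5% of all genes. An adjusted p under 0.05 was reached by 2 of the 11, beside 18.9% of all genes. *Dcn* was called lower with normexp and without *Sox17* ed/ed replicate 3. The stromal sum was 347030 to 354609 in *Sox17* f/f and 308571 to 332506 in *Sox17* ed/ed. *Dcn*, the brightest of the 11 in *Sox17* f/f, had log2 means of 16.80 and 16.37, so the sum leans on that gene. Of 8 smooth muscle genes 12.5% were called, the same share as over all genes. The gene called was *Actg2*, lower at -0.64 (SE 0.10), and the smooth muscle sum was 495358 to 547073 and 369266 to 444741. The part of these shifts in the differences of *Pax8*, *Emx2*, *Wt1* and *Cdh16* was not tested.

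**Figure D5:**
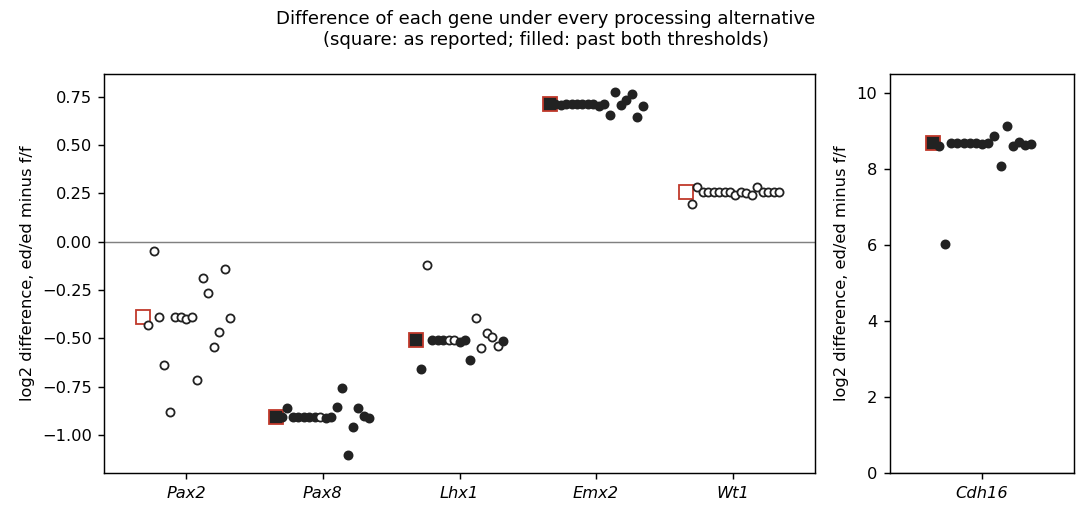
Log2 difference, Sox17 ed/ed minus Sox17 f/f (y axis, Cdh16 on its own scale) of each of the 6 genes as reported (square) and under each processing alternative (circles), filled where it passed both thresholds. No gene changed sign; Lhx1 loses its call most often, Cdh16 is lowest with normexp at 6.03, and Pax2 and Wt1 are never called.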

How the data were processed

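RNA from whole mouse uterus was labelled with Cy3 and hybridised to 6 one-colour Agilent mouse gene expression arrays of 62976 spots, 3 per genotype. The authors deposited scanner files in which Feature Extraction (11.0.1.1 per the file headers, 9.1 per the submitters' processing notes) gives each spot a background-subtracted processed signal intensity. A value table deposited by the authors as intensity lay within 0.191% of that signal, so it was not normalized between arrays.

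Control spots (3671) and spots marked non-uniform or as outliers (169 to 302 per array) were left out. The log2 processed signal was quantile normalized over the arrays and spots of a probe were averaged. Of 55681 probes, 26582 were matched through RefSeq accessions to a GRCm38.p6 gene table (array design build mm9). A gene was represented by its brightest probe among those well above background on at least 3 arrays, and fitted with lmFit and eBayes of limma 3.58.1 in R 4.3.3. Precision is limited by 3 arrays per genotype, and the lowest processed signal well above background was 13.1 to 18.0. The fit was tested on simulated data. The normexp alternative (offset 50) used median spot signals, since mean spot signals were not used here. Named were the 6 genes with all probes, their antisense transcripts, *Sox17*, up to the 4 largest called genes of each list, genes of the Müllerian list, and the 3 of nearest pattern. *Pax6*, *Lhx5*, *Epcam*, *Msln*, *Dcn* and the genes named only as undetected were chosen after their values were seen, as were *Lhx6* and *Lmx1b*. The 6 genes and the lists were chosen with earlier results of these data known, and the lists share some genes. A few list genes are not reported here and were left out of the list counts and sums.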

Additional observations from a re-analysis of the deposited data

Results flagged for a closer look

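The third *Pax2* probe gave a processed signal of 726 on *Sox17* ed/ed replicate 1, against 6.50 to 33.4 on the other 5 arrays. The scanner software had marked that spot as non-uniform, so it entered no comparison, and the other 2 *Pax2* probes read 28.5 and 12.3 on the same array. With marked spots kept, an alternative chosen after seeing the data, *Pax2* was still not called.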

How the results depend on the processing

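No difference of *Pax2*, *Pax8*, *Lhx1*, *Emx2*, *Wt1* or *Cdh16* changed sign in up to 17 alternatives each, and *Emx2* and *Cdh16* stayed called wherever they were fitted. With probes required on all 6 arrays, *Pax2*, *Lhx1* and *Cdh16* could not be fitted, so 2 of the 6 genes were called, 1 higher and 1 lower. *Lhx1* was not called with normexp (-0.12), an intensity trend (-0.51) or an ordinary linear model (-0.51), which left 1, 1 and 0 genes called lower, and in the last 2 genes called in all, since *Pax8* (-0.91) was lost too. Leaving out 1 array at a time, *Lhx1* ranged from -0.61 to -0.39 and lost its call without any array but *Sox17* f/f replicate 1, so 1 to 2 genes were called lower. *Wt1os* ranged from -0.23 to 0.074, turning positive without *Sox17* f/f replicate 1 or *Sox17* ed/ed replicate 3 (0.022), and *Bend6* from -0.62 to 0.060, positive without the latter. The causes were not tested.

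Over all genes, 1857 were called, 1370 to 2033 under alternatives and 2808 (1496 lower) at an adjusted p under 0.05 with no fold threshold. Among 50 other named genes, 786 of 839 values kept direction and call. With a replicate block 1796 genes were called, and same-numbered arrays correlated at 0.06, -0.11 and -0.00 in their deviations, so the numbers were not taken to pair the samples. Signals near background limit *Pax2*, *Lhx1* and the control level of *Cdh16*.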
